A study of Homo sapiens with 8 samples.

Results

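The BH3-only genes encode short proteins that start programmed cell death at the mitochondrion. The 8 of them described here are PMAIP1 (NOXA), BBC3 (PUMA), BCL2L11 (BIM), BMF, BIK, BID, BAD and HRK. Every array probe set that the platform annotation assigns to 1 of these genes and to no other was taken, which gave 32 probe sets of 44988 single-gene probe sets in all, and 8 genes of 18132. By gene, BCL2L11 had 14 probe sets, BMF and BID 4 each, BIK 3, PMAIP1, BBC3 and BAD 2 each, and HRK 1.

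RNA came from AGS, an established line of human gastric adenocarcinoma cells, and RNA of many cells was pooled on each array. The 4 arrays of the first group carried RNA of AGS cells treated with podofilox at 3.4 nM for 72 hours. The 4 arrays of the second group carried RNA of AGS cells labelled control, with no agent and no culture time named. Podofilox is another name of podophyllotoxin, a plant product that blocks the assembly of microtubules by binding to tubulin. The labels do not say whether control cells received the solvent, and do not describe replicates as separate cultures, so p-values reflect array-to-array spread that may be technical only. In such bulk RNA a change in the share of cells that use a gene cannot be told apart from a change in the RNA of each cell.

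A BH3-only protein carries a single short helix, the BH3 region, that fits into a groove of the anti-death proteins MCL1, BCL2, BCL-XL (BCL2L1), BCL-w (BCL2L2) and BFL1 (BCL2A1). It frees BAX and BAK1 by binding there, or switches them on directly. BAX and BAK1 then open the outer mitochondrial membrane and release cytochrome c. NOXA binds mainly MCL1 and BFL1, HRK mainly BCL-XL, and BAD mainly BCL2, BCL-XL and BCL-w, whereas PUMA and BIM bind all of these guards. Both BIM and BMF have ties to the cytoskeleton: BIM is held on microtubules by the dynein light chain DYNLL1 and BMF on the actin network by DYNLL2. BIM, PUMA and NOXA are also controlled at the level of their mRNA, by p53, FOXO factors and the stress factors CHOP (DDIT3) and ATF4, whereas BID is switched on by caspase cleavage and BAD by loss of phosphate groups.

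The starts of the genes that rose, PMAIP1 and BBC3, and of BCL2L11, which has the most probe sets, are shown for reference, since these are the members best known for control by transcription factors. Each sequence is the coding strand of RefSeq assembly GRCh38.p14, 5′ to 3′, from 250 bases before a transcript start to 50 bases after it. The windows lie at chr18:59899746-59900045 on the plus strand for PMAIP1, chr19:47232618-47232917 on the minus strand for BBC3, and chr2:111120664-111120963 on the plus strand for BCL2L11. Capitals mark every match, on either strand, to the cAMP response element half-site TGACG, the CHOP-ATF composite site TGATGNAA, the FOXO site GTAAACA, the E-box CACGTG, or the p53 half-site.
PMAIP1: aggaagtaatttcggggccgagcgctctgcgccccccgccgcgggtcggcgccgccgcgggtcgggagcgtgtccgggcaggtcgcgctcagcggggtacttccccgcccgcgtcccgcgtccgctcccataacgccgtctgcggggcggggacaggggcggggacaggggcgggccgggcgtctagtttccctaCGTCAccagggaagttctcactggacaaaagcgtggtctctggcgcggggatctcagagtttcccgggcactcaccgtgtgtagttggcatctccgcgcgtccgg
BBC3: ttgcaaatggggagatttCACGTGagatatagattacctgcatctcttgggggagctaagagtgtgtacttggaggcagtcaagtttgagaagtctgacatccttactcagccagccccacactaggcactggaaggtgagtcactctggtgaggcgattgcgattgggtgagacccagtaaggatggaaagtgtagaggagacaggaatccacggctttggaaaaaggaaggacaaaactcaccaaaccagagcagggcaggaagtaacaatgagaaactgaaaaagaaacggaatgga
BCL2L11: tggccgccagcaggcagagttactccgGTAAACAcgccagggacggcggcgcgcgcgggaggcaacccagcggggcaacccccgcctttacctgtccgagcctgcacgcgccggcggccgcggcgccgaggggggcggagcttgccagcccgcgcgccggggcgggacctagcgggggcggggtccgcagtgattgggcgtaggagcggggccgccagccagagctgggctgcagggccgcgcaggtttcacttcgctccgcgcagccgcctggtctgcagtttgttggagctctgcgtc
The PMAIP1 window held 1 of these motifs, CGTCA, the half-site read on the other strand, whose first base lies 55 bases before the start. The BBC3 window held an E-box and no other searched motif, and the BCL2L11 window held a FOXO site and no other. Over all 35116 promoter windows of the table, the half-site was in 24.6%, the composite site in 3.62%, the FOXO site in 3.42%, the E-box in 7.26% and the p53 half-site in 6.63%. The table held 13 windows for 7 of the 8 genes, all but BIK, and the p53 half-site, whose letters are not given here, was in 0 of the 13. As 6.63% of all windows held it, so few windows do not show that these genes lack it. Bases outside the windows were not searched. The half-site TGACG was also in the windows of genes that did not rise, namely both BAD windows, 1 BMF window and the HRK window. The HRK window alone of the 13 held the composite site, and 2 BID windows held the E-box. Matches describe letters in this window and do not show that a factor binds there.

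The values are log2 expression, and a difference is podofilox minus control. Array medians lay between 6.39 and 6.45, and arrays of the same group correlated across probe sets at 0.997 to 0.999. The epithelial markers EPCAM, KRT8, KRT18 and KRT19 averaged 12.8 to 13.4 in both groups, while CDH1, the epithelial cadherin, averaged 7.52 with podofilox and 7.41 in control cells. None of these 5 epithelial markers and none of 5 fibroblast markers passed the test. Of 5 immune markers CD68 was higher (0.28) and of 4 endothelial markers CDH5 was lower (-0.44). The CDH5 values were low, with means of 4.8 with podofilox and 5.24 in control cells. Summed log2 levels ran from 23.5 to 24.2 with podofilox and 23.1 to 24.3 in control cells for fibroblast markers, from 27.6 to 27.8 with podofilox and 27.2 to 27.9 in control cells for immune markers, and from 23.8 to 24.5 with podofilox and 23.6 to 25.3 in control cells for endothelial markers. Their part in the results below was not tested.

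Cells with podofilox had more mRNA of PMAIP1 (1.67-fold) and BBC3 (1.45-fold on the brighter probe set and 1.61-fold on the other), and less of BIK (1.18-fold lower) and, on 1 probe set each, of BID (1.26-fold lower) and BAD (1.14-fold lower). BCL2L11, BMF and HRK did not pass the test on any of their 19 probe sets. Risen or fallen here means that the two-sided limma test, with Benjamini-Hochberg adjustment over all 44988 single-gene probe sets, gave a probe set an adjusted p under 0.05. By this rule 4 of the 32 probe sets rose, where 7.83% of all probe sets rose, and 5 fell, where 10.2% of all fell. Together 9 of 32 (28.1%) were called, against 18.0% of all. The members hold fewer dim probe sets, as 27 of the 32 averaged at least 5 in a group, against 31723 of all 44988. After a filter at this level, 11 of the 27 members were called, and 9289 of the 31723. Over the 32 probe sets the median difference was 0.035, against 0.0072 over all 44988. Read from the brightest probe set of each gene, 2 of the 8 genes rose and 2 fell, against 7.64% and 11.5% of all 18132 genes, and 4 of 8 had groups that did not overlap, against 26.2% of all genes.

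**Figure D1:**
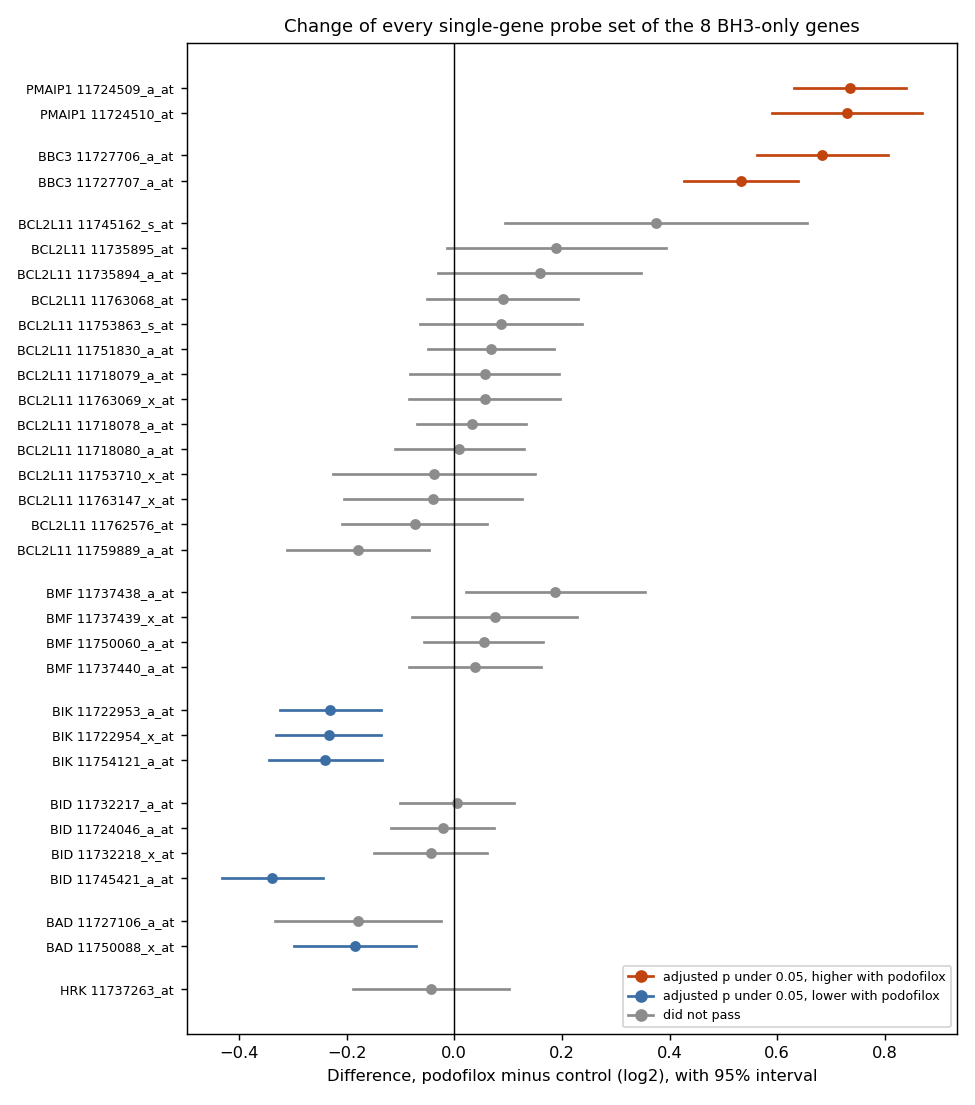
Difference in log2 expression, podofilox minus control, for each of the 32 single-gene probe sets of the 8 BH3-only genes, with limma's 95% interval as a line. Both probe sets of PMAIP1 and of BBC3 lie to the right at 0.53 to 0.74, the 3 of BIK lie together near -0.23, and 1 of the 4 BID probe sets stands apart at -0.34.

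PMAIP1 encodes NOXA, which binds MCL1 and speeds its breakdown. On probe set 11724509_a_at, its brighter one, the 4 podofilox arrays read 9.04, 9.01, 8.94 and 9.02, against 8.32, 8.29, 8.25 and 8.21 on the 4 control arrays. The groups were far apart, and within each group the arrays lay close together. Their means were 9.002 ± 0.04 with podofilox and 8.27 ± 0.05 in control cells (SD, n = 4 each), a difference of 0.74 (SE 0.05, 95% interval 0.63 to 0.84, limma adjusted p = 1.3e-05). Probe set 11724510_at read 7.60, 7.70, 7.82 and 7.83 with podofilox, against 7.07, 7.05, 6.93 and 6.98 in control cells. These groups did not overlap either, and the difference was 0.73 (SE 0.06, limma adjusted p = 6.62e-05). The dimmer probe set spread more widely among podofilox arrays, and its difference was 0.59 within replicates 1 and 2 and 0.87 within replicates 3 and 4, while the brighter one gave 0.72 and 0.75. The change of the brighter minus that of the dimmer probe set was 0.005 (95% interval -0.16 to 0.17). Among all 18132 genes, each read from its brightest probe set, 31 had a larger rise.

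BBC3 encodes PUMA, which binds all the anti-death members and is a known target of p53 and of CHOP. On probe set 11727707_a_at, the brighter one, podofilox arrays read 10.71, 10.79, 10.63 and 10.69, against 10.15, 10.14, 10.20 and 10.19 on control arrays. The groups did not overlap, and the difference was 0.53 (SE 0.05, 95% interval 0.43 to 0.64, limma adjusted p = 8.18e-05). Probe set 11727706_a_at read 10.03, 10.14, 9.95 and 9.95 with podofilox, against 9.28, 9.31, 9.37 and 9.37 in control cells. Here the difference was 0.68 (SE 0.05, 95% interval 0.56 to 0.81, limma adjusted p = 4.19e-05), again with no overlap. The brighter probe set changed by 0.15 less than the other (exact permutation p = 0.0286 before adjustment, but adjusted p = 0.121 by limma over all such pairs). Within replicates 1 and 2 the rises were 0.60 and 0.79 on the brighter and the other probe set, and within replicates 3 and 4 they were 0.47 and 0.58. By the brightest probe set, 98 of 18132 genes rose more than BBC3.

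**Figure D2:**
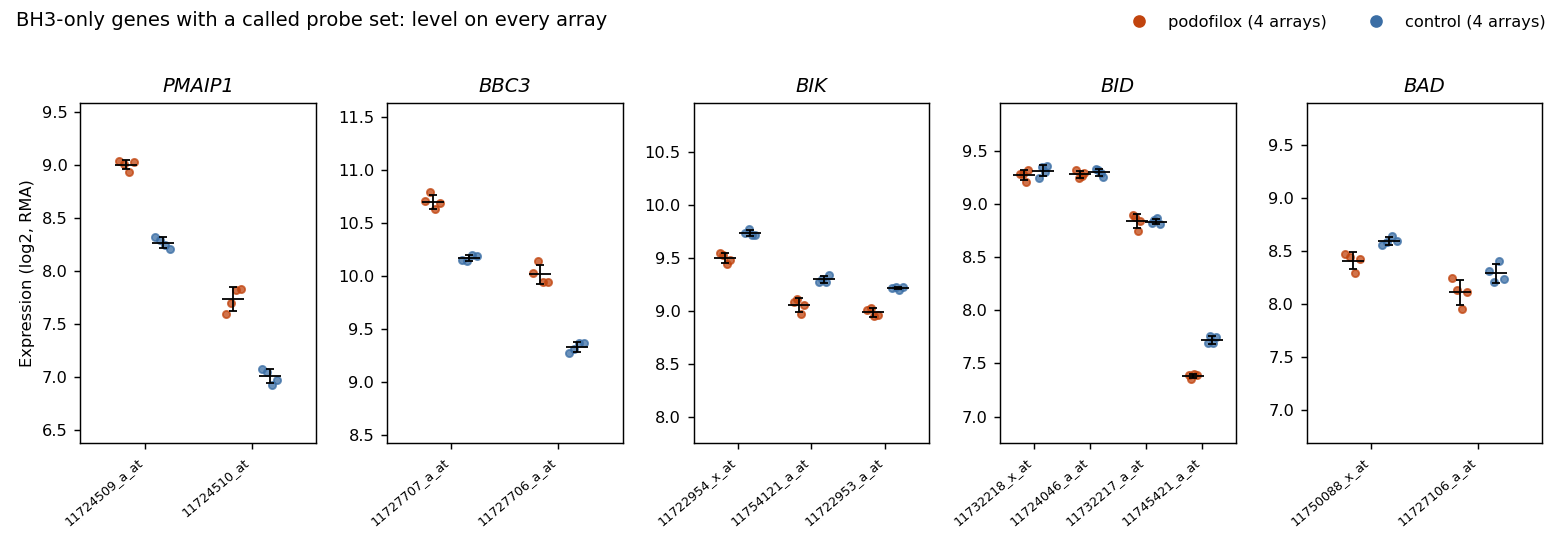
Log2 expression on every array for the 5 BH3-only genes with at least 1 called probe set, 1 panel a gene, each axis spanning the same range. Points are the 4 podofilox arrays (left of each pair) and the 4 control arrays (right), bars are the mean and SD. PMAIP1 and BBC3 are higher with podofilox on both probe sets, BIK is lower on all 3, and BID is lower on 11745421_a_at alone.

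BIK, which resides at the endoplasmic reticulum and binds BCL2 and BCL-XL, fell on all 3 of its probe sets. On the brightest, 11722954_x_at, podofilox arrays read 9.54, 9.53, 9.45 and 9.49, against 9.73, 9.77, 9.71 and 9.72 on control arrays. The fall was small but larger than the spread within the groups, which did not overlap. The difference was -0.23 (SE 0.04, 95% interval -0.33 to -0.14, limma adjusted p = 0.00484). Probe set 11722953_a_at gave -0.23 (limma adjusted p = 0.00417) and 11754121_a_at gave -0.24 (limma adjusted p = 0.00644). The change of the brightest minus that of each other probe set had 95% intervals of -0.10 to 0.10 and -0.10 to 0.11. With 2 arrays a group, the calls of all 3 ended within replicates 1 and 2 (-0.22 to -0.19, adjusted p up to 0.144), and that of 11722954_x_at also within replicates 3 and 4 (-0.25, adjusted p = 0.0547).

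BID links death receptors to mitochondria once caspase 8 has cut it. Its 3 brighter probe sets did not pass the test, with differences of -0.04 (11732218_x_at, 95% interval -0.15 to 0.06), -0.02 (11724046_a_at) and 0.0045 (11732217_a_at). The dimmest, 11745421_a_at, read 7.39, 7.35, 7.40 and 7.39 with podofilox, against 7.69, 7.75, 7.69 and 7.75 in control cells. On this probe set the podofilox arrays lay within 0.05 of one another and all below the control arrays, at a difference of -0.34 (SE 0.04, limma adjusted p = 0.000516). The change of the brightest probe set minus that of 11745421_a_at was 0.30 (95% interval 0.18 to 0.41, limma adjusted p = 0.0147 over 26856 such pairs of all genes), and 3.65% of those pairs were called. The exact permutation test of this pair gave p = 0.0286, the smallest that 70 arrangements can give, and did not pass once adjusted for the 24 pairs of member probe sets tested. Which BID transcripts each probe set reads was not analysed here.

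BAD is silenced by 14-3-3 proteins while growth factor kinases keep it phosphorylated. Probe set 11750088_x_at read 8.47, 8.45, 8.30 and 8.42 with podofilox, against 8.56, 8.59, 8.64 and 8.59 in control cells. The groups did not overlap, but podofilox replicate 1 and control replicate 1 lay closer together than podofilox replicates 1 and 3. The difference was -0.19 (SE 0.05, limma adjusted p = 0.0309), and the call was lost when 1 array was omitted, for 6 of the 8 arrays (adjusted p as high as 0.0791), the exceptions being replicate 1 of each group. Probe set 11727106_a_at differed by -0.18 (SE 0.07, limma adjusted p = 0.105), with overlapping groups. Without probe sets of the _x_at and _s_at kind, which can bind other transcripts, BAD therefore did not pass (adjusted p = 0.113).

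BCL2L11 encodes BIM, the member tied to microtubules. None of its 14 probe sets passed the test, and their differences ran from -0.18 to 0.38 with a median of 0.06, 10 of them above 0. The brightest, 11718078_a_at, read 8.13, 8.10, 8.19 and 8.08 with podofilox, against 8.14, 8.04, 8.09 and 8.10 in control cells. These values overlapped throughout, and the difference of 0.03 had a 95% interval of -0.07 to 0.13, so a rise of the size seen in BBC3 lies outside it. The largest difference, 0.38 on 11745162_s_at (95% interval 0.09 to 0.66, limma adjusted p = 0.0664), came with control arrays that ran from 4.52 to 5.19. Without control replicate 2, the highest of these, it was 0.51 and passed the test (adjusted p = 0.00496). It also passed with all 8 arrays after a filter on dim probe sets (adjusted p = 0.0475), with an intensity trend and robust variances (0.0377) and with array weights (0.0148), and within replicates 3 and 4 (0.0396), so its call depends on the settings. Probe set 11759889_a_at lay lower on all 4 podofilox arrays (6.25 to 6.42) than on control arrays (6.45 to 6.63), at -0.18 (limma adjusted p = 0.0643), and passed the test without control replicate 3 (-0.21, adjusted p = 0.0477), after the filter (0.0394) and with array weights (0.0289). Probe set 11735895_at, a dim one at 0.19, passed with array weights alone (adjusted p = 0.046). The only BCL2L11 probe set whose groups did not overlap was 11759889_a_at. Among all single-gene probe sets 24.2% had groups that did not overlap, and among the 32 member probe sets 10 did. Of its 14 probe sets 5 averaged under 5 in both groups, where values are dim, and 5 were of the _x_at or _s_at kind.

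Differences between BCL2L11 probe sets were tested as well, since the gene is known to give many splice forms. Among 13 pairs of the brightest and another probe set, 0 passed by limma over all pairs (adjusted p from 0.13 upwards), and 1, with 11759889_a_at, reached the smallest permutation p (a difference in change of 0.21). Over the 24 such pairs of all members, 3 reached an exact permutation p of 0.0286, the smallest possible, and 1, the BID pair, passed by limma over all pairs. By the permutation test 0 of the 24 passed after adjustment, for which 14 pairs would have to reach the smallest p.

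BMF, the member tied to the actin network, did not pass on any of 4 probe sets, with differences from 0.04 to 0.19. Probe set 11737438_a_at had the largest, with 7.02, 6.90, 6.82 and 6.92 on podofilox arrays against 6.55, 6.68, 6.89 and 6.79 on control arrays. These groups overlapped (0.19, 95% interval 0.02 to 0.36, limma adjusted p = 0.116). On its brightest probe set, 11737440_a_at, the difference was 0.04 (95% interval -0.09 to 0.16). HRK, a member best known from neurons, read 5.56, 5.55, 5.58 and 5.53 with podofilox, against 5.59, 5.51, 5.79 and 5.50 in control cells on its 1 probe set. Control replicate 3 was the highest array, the groups overlapped, and the difference was -0.04 (95% interval -0.19 to 0.10, limma adjusted p = 0.708).

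The guards that these proteins bind were read from the brightest probe set of each gene, as were all genes that follow. Of 6 anti-death genes 2 rose and 0 fell, where 19.1% of all genes were called in either direction. MCL1, the partner of NOXA, read 12.64, 12.64, 12.50 and 12.60 with podofilox, against 12.21, 12.21, 12.24 and 12.22 in control cells. Its groups did not overlap, and the difference was 0.37 (SE 0.05, limma adjusted p = 0.000516). Its other 5 probe sets ranged from 0.09 to 0.47, and 2 of them passed. BCL2L1 rose by 0.19 (SE 0.04, limma adjusted p = 0.0108), and by 0.36 and 0.46 on its other probe sets. BCL2L2 differed by 0.06 on its brightest probe set and did not pass, while a dimmer one rose by 0.23.

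Because mRNA of both PMAIP1 and MCL1 rose, each BH3-only gene was set against MCL1 within every array, on the brightest probe sets. Protein was not measured. The difference of PMAIP1 and MCL1 was -3.60, -3.63, -3.57 and -3.57 on podofilox arrays, against -3.89, -3.92, -3.996 and -4.02 on control arrays. The podofilox arrays were all higher, so this PMAIP1 probe set rose more than this MCL1 probe set, by 0.36 (SE 0.03, exact two-sided permutation p = 0.0286). BBC3 also rose more than MCL1 on this brightest MCL1 probe set, by 0.16 (SE 0.02, exact permutation p = 0.0286). Other MCL1 probe sets differed by 0.09 to 0.47, and the largest of these lies near the 0.53 of BBC3. The size of the excess of BBC3 therefore depends on the MCL1 probe set. The other 6 genes came out lower against MCL1, from -0.33 for BMF and -0.34 for BCL2L11 to -0.56 for BAD and -0.61 for BIK. Because MCL1 itself rose by 0.37, a gene that did not rise had to come out lower, so these 6 values restate the rise of MCL1 beside each gene's own difference. The p of 0.0286 is the smallest that the design allows. The 8 comparisons share the MCL1 values and so are not independent, and levels of different probe sets carry no meaning against each other, only their change. As the mean over all probe sets of each gene, the excess over MCL1 was 0.42 for PMAIP1 and 0.30 for BBC3.

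**Figure D3:**
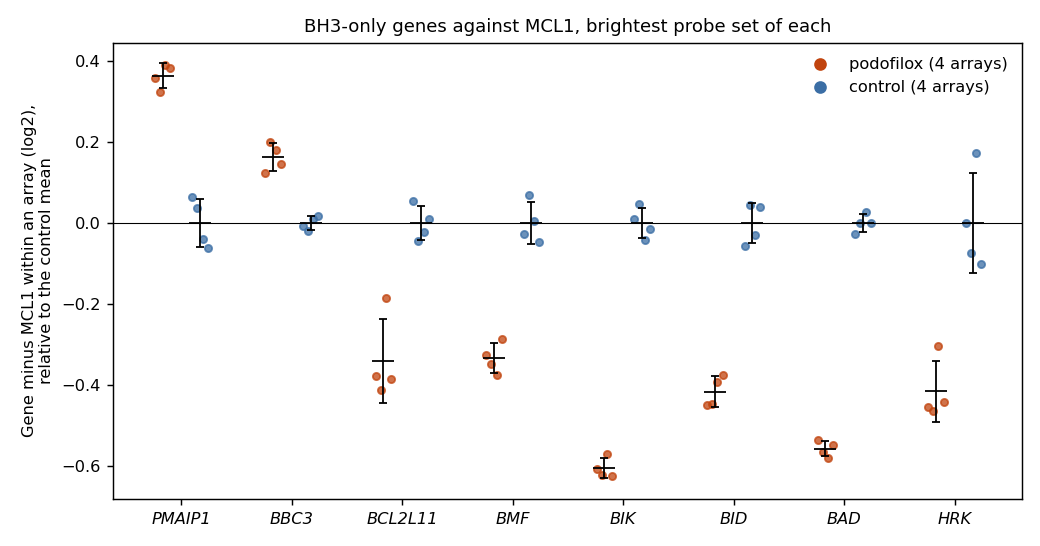
Log2 expression of each BH3-only gene minus that of MCL1 on the same array, set to 0 at the control mean, with points for the 4 podofilox arrays (left) and 4 control arrays (right) and bars for the mean and SD. Each gene, MCL1 included, is read from its brightest probe set. PMAIP1 (0.36) and BBC3 (0.16) lie above 0 with podofilox, and the other 6 genes lie below it, down to -0.61 for BIK.

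Of the pore-forming genes, 1 of 3 rose and 1 fell, where 7.64% of all genes rose and 11.5% fell. BAK1 rose by 0.21 (SE 0.06, limma adjusted p = 0.0281), and this call was lost when 1 array was omitted, for 6 of the 8 arrays (adjusted p as high as 0.0761), the exceptions being replicate 3 of each group, although 2 of its 4 other probe sets rose too. BAX differed by 0.10 (SE 0.10) and did not pass. Its control arrays read 11.91, 11.96, 12.32 and 12.32, against 12.29, 12.29, 12.17 and 12.16 with podofilox. Within replicates 1 and 2 BAX was higher with podofilox (0.35, limma adjusted p = 0.0394), while in replicates 3 and 4 the control arrays were higher. BOK, a relative that can act without BH3-only proteins, changed by -0.36 (SE 0.06, limma adjusted p = 0.00232) on a probe set of the _s_at kind, while its other probe sets gave -0.01 and -0.08 and did not pass. Among 5 other genes whose proteins have a BH3-like region, BNIP3L, a receptor for the removal of mitochondria, rose by 0.22 (SE 0.05, limma adjusted p = 0.0149). HUWE1, a ubiquitin ligase that marks MCL1 for breakdown, changed by -0.24 (SE 0.05, limma adjusted p = 0.00732), but its mean over 3 probe sets, of which 2 are dim, was -0.0059. BNIP3 (0.22) did not pass, on a dim probe set that averaged 4.74 with podofilox and 4.52 in control cells.

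Of 12 measured transcription factors known to act on BH3-only genes, 5 rose and 1 fell, against 7.64% and 11.5% of all genes. A further 2 of the 14 listed were not analysed here. DDIT3, which encodes the stress factor CHOP, read 7.26, 7.23, 7.33 and 7.26 with podofilox, against 6.48, 6.52, 6.44 and 6.53 in control cells. The groups lay well apart, at a difference of 0.78 (SE 0.05, limma adjusted p = 9.45e-06), and its second probe set gave 0.69. Both DDIT3 probe sets are of the _s_at kind. ATF3, a stress factor induced with CHOP, rose by 0.55 (SE 0.06, limma adjusted p = 0.000213), and 4 of its 7 probe sets passed. FOXO3, which drives BCL2L11 and BBC3 when growth signals are low, rose by 0.44 (SE 0.04, limma adjusted p = 0.000154), and all 3 of its probe sets, each of the _x_at kind, rose. ATF4 differed by 0.08 and did not pass. JUN rose too (0.36, SE 0.07, limma adjusted p = 0.00472). Of the 6 calls, FOXO1 (0.15, limma adjusted p = 0.0499) and E2F1, the gene that fell (-0.14, limma adjusted p = 0.0486), lay at the threshold. JUN, FOXO1 and E2F1 are named after their values were seen. The median difference of the 12 genes was 0.16, against 0.0069 over all genes.

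**Figure D4:**
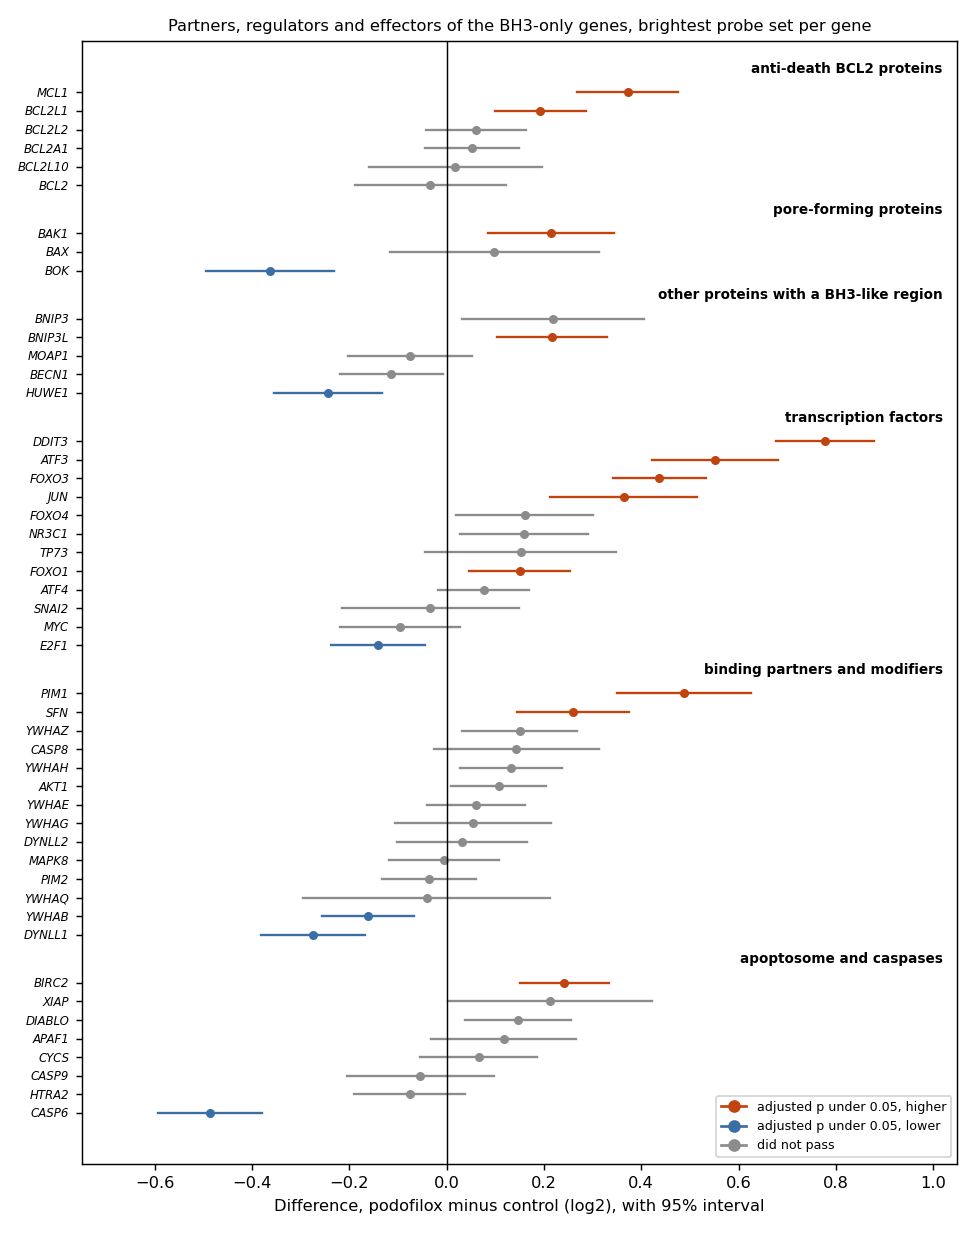
Difference in log2 expression, podofilox minus control, with limma's 95% interval, for the partners, regulators and effectors of the BH3-only genes, each read from its brightest probe set. DDIT3 (0.78) and ATF3 (0.55) lie farthest to the right, and CASP6 (-0.49) and BOK (-0.36) farthest to the left.

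Of 14 genes for proteins that hold, modify or cut BH3-only proteins, 2 rose and 2 fell. That is 28.6% called, against 19.1% of all genes, and over every probe set of the list it was 19.6%, against 18.0% of all probe sets. DYNLL1, the light chain that holds BIM on microtubules, read 11.66, 11.73, 11.82 and 11.79 with podofilox, against a mean of 12.02 ± 0.02 in control cells (SD, n = 4). It was lower on every podofilox array, at -0.28 (SE 0.05, limma adjusted p = 0.00341), whereas DYNLL2, the partner of BMF, differed by 0.03 on its brightest probe set and by 0.29 on the other and did not pass. PIM1, a kinase that phosphorylates BAD, rose by 0.49 (SE 0.06, limma adjusted p = 0.000572), and its 3 other probe sets rose by 0.58 to 0.70. SFN, the epithelial 14-3-3 protein, rose by 0.26 (SE 0.05, limma adjusted p = 0.00667). Another 14-3-3 gene, YWHAB, named after its value was seen, fell (-0.16, SE 0.04, limma adjusted p = 0.0245), and the other 5 of the 7 in the list did not pass.

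Downstream of the mitochondrion, 1 of 8 measured apoptosome and caspase genes rose and 1 fell, with 3 further listed genes not analysed here. The executioner caspase gene CASP6 changed by -0.49 (SE 0.05, limma adjusted p = 0.000155) on its 1 probe set, of the _x_at kind. BIRC2, an inhibitor of cell death, rose by 0.24 (SE 0.04, limma adjusted p = 0.00295) and rose on its 4 other probe sets as well. DIABLO, which counters such inhibitors once released, differed by 0.15 and did not pass (limma adjusted p = 0.064). Its call depends on the settings. Among other alternatives, it passed after the filter on dim probe sets (limma adjusted p = 0.0353), with an intensity trend and robust variances (0.0114) and with array weights (0.0271). Over the 48 genes of these 6 lists 12 rose and 6 fell, which is 37.5%, against 19.1% of all genes. The lists were chosen with earlier results of these data known. They also hold fewer dim genes, as 44 of the 48 averaged at least 5 in a group, against 13645 of all 18132.

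The genes whose pattern over the 8 arrays was most like that of PMAIP1 were MTMR11 (Pearson's r = 0.998), AMN1 (0.998) and EGFR (0.997), among 13644 genes that averaged at least 5 in a group. For BBC3 they were LYPD3 (0.997), ALDOC (0.997) and KLF9 (0.996). PMAIP1 and BBC3 correlated at 0.983 with each other. With 2 groups of 4 arrays such values include the step between the groups and are given as a description.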

How the data were processed

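RNA of 8 samples of AGS cells was measured on 1-colour Affymetrix arrays. The deposited values are log2 expression per probe set, made by the authors with RMA (robust multi-array average), per the submitters' processing notes. Its software and options were not given in the sources used here. That values are log2 follows from their range (2.64 to 15.0). They carry no detection calls, and precision is limited by the number of arrays. Of 49395 probe sets, 102 were manufacturer controls, 44988 had 1 gene in the platform annotation, 1832 several, and 2473 were unnamed here. The RefSeq gene table of GRCh38.p14 held the Entrez identifiers of 44961 of the single-gene ones, with 0 symbols changed.

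The 2 groups were tested by limma 3.58.1 (R 4.3.3), with lmFit and eBayes, no covariates and no filter, in 1 fit of all single-gene probe sets. Genes outside the 8 were read from their probe set with the highest mean. Within-array differences of 2 probe sets were tested with exact two-sided permutation tests over 70 arrangements (scipy 1.17.1) and, for probe sets of 1 gene, also with limma over all such pairs of the table. The limma step was tested on simulated data. Python 3.11.15 and matplotlib 3.10.9 drew the figures. Promoter windows come from RefSeq.

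The named genes are the 8 members, MCL1, DDIT3, ATF4, DYNLL1 and DYNLL2, up to 3 genes of each list with the smallest p, and the 3 genes most like PMAIP1 and BBC3. The members, the lists and this rule were chosen with earlier results of these data known. Some list members were not analysed here. The motifs searched and the limma test of pairs were chosen after the values were seen. Replicate numbers did not pair the arrays (correlations of same-numbered arrays' deviations from their group means from -0.254 to 0.0394). Alternatives were a filter on dim probe sets, other normalizations, variance models, weights for arrays, a block on replicate number, other choices of probe sets, and subsets of the arrays.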

Additional observations from a re-analysis of the deposited data

Results flagged for a closer look

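Among the 64 groups of 4 arrays (32 probe sets, 2 groups each), 5 held an array far from the other 3 by Dixon's test, where chance flags about 1 group in 20. On BCL2L11 probe set 11745162_s_at podofilox replicate 1 read 5.35, with the next array at 5.13. On 11759889_a_at podofilox replicate 2 read 6.25, with the next at 6.39. On 11753863_s_at control replicate 2 read 6.44, with the next at 6.24. On BMF probe set 11737440_a_at podofilox replicate 3 read 7.44, with the next at 7.61, and on 11737439_x_at control replicate 4 read 5.61, with the next at 5.70. None of these 5 probe sets passed the test, and no array was far from its group on PMAIP1, BBC3, BIK, BID, BAD or HRK.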

How the results depend on the processing

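PMAIP1 and BBC3 passed the test on both probe sets under every alternative that was fitted per probe set, and as brightest and mean per gene. Of the results that passed, 0 changed sign under an alternative. Among those that did not pass, 23 took the other sign under at least 1 alternative, and 0 of these values with a test passed it. With 1 array left out in turn, the probe sets called among all numbered 5650 to 7419 (8112 with all arrays), with 2418 to 3451 up and 3232 to 4296 down. Member probe sets called were 8 to 9 (up 4 to 5, down 4 to 5), member genes 3 to 4, and list genes 14 to 18 (up 10 to 13, down 4 to 5).

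The brightest probe set per gene gave 3810 calls (1550 up, 2260 down), the mean per gene 4008 (1755 up, 2253 down), and leaving out _x_at and _s_at probe sets 5243 (2272 up, 2971 down), each over fewer features. Array weights gave 5534 up, and the cause was not tested. Without _x_at and _s_at probe sets, 3 member probe sets fell and 11 list genes were called, 2 of them down. With fewer arrays, replicates 1 and 2 gave 2705 calls (1352 up, 1353 down), 5 member probe sets (1 down), 2 member genes and 3 list genes down. Replicates 3 and 4 gave 4642 calls (2032 up, 2610 down), 3 member probe sets down, 2 member genes and 8 list genes (6 up, 2 down).

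With the replicate number as a block, 5581 probe sets were called (2405 up, 3176 down), with 8 member probe sets and 3 member genes, and BAD (adjusted p = 0.0946) and BAK1 (adjusted p = 0.085) did not pass. The numbers did not pair the arrays. Permutation tests with 7 arrays cannot reach 0.05, so those without 1 array were taken as values only. Dim probe sets, 5 of the 32, limit what can be said of BCL2L11.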
